A study of Mus musculus with 10 samples.

Results

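The genes described here are 50 that a dividing cell uses to copy its DNA and then to separate the copies. They comprise 25 genes of G1/S and DNA replication and 25 of G2 and mitosis, chosen by name for their known roles and not by a threshold on values of these libraries. All 50 were found among the 55401 gene identifiers that the count files list, through the GENCODE M21 annotation of the mouse build GRCm38. They were measured by RNA sequencing in Neuro2a, a mouse neuroblastoma cell line with a wild-type genotype per the labels. Cells received plasmid DNA by Lipofectamine transfection (0.5 µg of each plasmid), the medium was changed after 24 h, and the protocol gives an incubation of 72 h. The dCas9-SCN9A libraries (n = 3) came from cells given a dCas9 repressor, a Cas9 that binds DNA without cutting it, directed at the sodium channel gene SCN9A. The dCas9-empty libraries (n = 3) are its control, and the labels do not say what that plasmid lacks. The ZF-SCN9A libraries (n = 2) came from cells given an engineered zinc-finger DNA-binding protein directed at the same gene. The mCherry libraries (n = 2), from cells given a red fluorescent protein, are taken here as the zinc-finger control. All plasmids were carried by transient transfection, and the labels do not give the share of cells that took one up. Whether the replicates were separate cultures is not stated either. The p-values therefore rest only on spread between these libraries, for a gene or across genes, which may be technical.

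The 2 sets act in order within each cell cycle. In G1, cyclin E with its kinase releases E2F1 from the retinoblastoma protein, and E2F1 raises transcription of genes for replication. The origin recognition complex, CDC6 and CDT1 load the MCM helicase onto DNA, CDC45 and the GINS complex turn the loaded helicase on, and polymerases follow with the sliding clamp PCNA. In G2 a second wave of genes is transcribed under the MuvB-MYBL2-FOXM1 complexes, including the cyclin B genes, CDK1 and the proteins of the spindle and kinetochore. A neuroblastoma line divides without stopping in normal medium, so both sets are transcribed in such cultures. In bulk RNA from a culture, fewer cells in a phase and less RNA per cell cannot be told apart.

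Depth was 17.8 M to 19.0 M gene counts in dCas9-empty, 15.4 M to 16.4 M in dCas9-SCN9A, and less in the zinc-finger arm, where mCherry had 6.59 M and 7.48 M and ZF-SCN9A had 6.30 M and 4.41 M. All 50 genes passed the filter on low counts in both comparisons, and the smallest count of any of them in any library was 34, for Orc1. The target Scn9a stood at 75.3, 81.1 and 78.3 CPM (counts scaled to the depth of each library) in dCas9-empty and at 31.0, 30.8 and 28.2 CPM in dCas9-SCN9A. Its mCherry values were 62.4 and 56.3 CPM, and its ZF-SCN9A values were 18.8 and 15.7 CPM, so the target was lower under both repressors, as labelled. Of the neuroblast markers, 11 passed the filter in each comparison, and the summed level of the list was 2482 to 3020 CPM across all 10 libraries. The summed levels of the fibroblast, glial and immune or endothelial markers reached at most 38.0 CPM in any library.

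The promoters of the 2 sets carry different letters, and 4 of them are shown because they belong to the 2 genes of each phase with the smallest p in the zinc-finger comparison, among those with an entry. RefSeq sequence of build GRCm38.p6 was at hand for 42 of the 50 genes, 21 in each phase. Each line gives 265 bases, from 250 before the RefSeq start site to 15 after it, 5′ to 3′ on the gene's own strand. Mcm5 encodes a subunit of the helicase ring and lies at chr8:75109259-75109523 (plus strand). Cdc6 encodes the loader of that ring, at chr11:98907901-98908165 (plus strand). Mki67 encodes the Ki-67 protein that coats mitotic chromosomes, at chr7:135716365-135716629 (minus strand). Prc1 encodes the protein that bundles the microtubules of the central spindle, at chr7:80294201-80294465 (plus strand). Capitals mark every match, on either strand, to an E2F site (TTTCCCGC or TTTGGCGC), to the cell-cycle homology region or CHR (TTTGAA or TTCGAA) and to the CCAAT box.
Mcm5: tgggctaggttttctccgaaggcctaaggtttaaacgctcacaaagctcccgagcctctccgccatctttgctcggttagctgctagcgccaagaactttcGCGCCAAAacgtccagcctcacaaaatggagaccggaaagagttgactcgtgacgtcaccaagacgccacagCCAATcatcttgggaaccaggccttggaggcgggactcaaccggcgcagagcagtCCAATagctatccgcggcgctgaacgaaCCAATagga
Cdc6: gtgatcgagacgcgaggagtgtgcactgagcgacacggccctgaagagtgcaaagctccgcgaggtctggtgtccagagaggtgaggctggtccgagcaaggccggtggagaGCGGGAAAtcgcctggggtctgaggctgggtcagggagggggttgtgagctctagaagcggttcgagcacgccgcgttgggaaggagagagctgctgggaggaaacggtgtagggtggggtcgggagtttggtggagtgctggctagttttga
Mki67: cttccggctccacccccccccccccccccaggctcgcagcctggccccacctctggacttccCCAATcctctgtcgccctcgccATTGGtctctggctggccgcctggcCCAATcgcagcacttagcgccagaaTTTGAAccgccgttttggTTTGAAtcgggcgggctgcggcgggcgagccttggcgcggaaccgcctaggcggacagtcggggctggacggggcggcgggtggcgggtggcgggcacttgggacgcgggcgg
Prc1: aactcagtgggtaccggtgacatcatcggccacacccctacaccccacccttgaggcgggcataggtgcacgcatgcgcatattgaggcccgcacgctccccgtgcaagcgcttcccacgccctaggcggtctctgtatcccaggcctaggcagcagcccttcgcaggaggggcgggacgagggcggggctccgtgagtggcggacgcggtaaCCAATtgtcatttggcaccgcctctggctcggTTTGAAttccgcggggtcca
In these lines, Mcm5 has 1 E2F match and 3 CCAAT boxes, and Cdc6 has 1 E2F match alone. Mki67 has 2 CHR matches downstream of 3 CCAAT boxes, and Prc1 has 1 CHR match that begins 5 bases before its start site, with 1 CCAAT box upstream.

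Over the full 300-base windows, which reach 50 bases past the start, an E2F match was found in 8 of 21 replication promoters and 0 of 21 mitosis promoters, against 1.63% of the promoters of 27025 genes. The 8 were those of Mcm3, Mcm5, Mcm6, Mcm7, Cdc6, Cdt1, Pola1 and Pold1. A CHR match was found in 17 of 21 mitosis promoters and 3 of 21 replication promoters (Mcm2, Mcm7 and Cdc45), against 19.4% of all. The CCAAT box was found in 19 mitosis and 14 replication promoters, against 37.9% of all, and CHR together with CCAAT in 17 and 3, against 7.70%. No motif contains the letters of another. A match is a run of letters in a window and does not show binding, and Gins1, Gins2, Mcm4, Ccne2, Ccna2, Kif20a, Aurkb and Tpx2 had no entry.

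**Figure D1:**
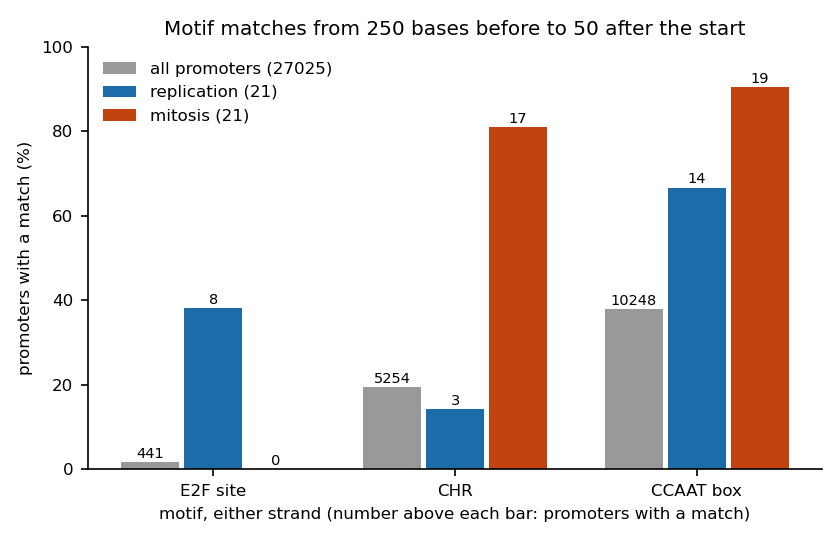
Share of promoters (y axis, percent) with a match to each motif (x axis) among all 27025 promoters and among the replication and mitosis genes with an entry, 21 each. E2F matches lie in replication promoters only among these 42, and CHR matches in 17 of 21 mitosis promoters.

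Levels were compared between genes per kilobase of exon, on 1 scale set over all 10 libraries. Mitosis genes stood somewhat higher, with a median of 22.5 CPM per kb in dCas9-empty against 16.0 for replication genes, and the same order held in the other 3 groups (23.5 and 16.6, 24.4 and 18.5, 24.0 and 18.1 in dCas9-SCN9A, mCherry and ZF-SCN9A). Top2a, the topoisomerase that untangles sister chromatids, had the highest level in all 4 groups, at 84.3 ± 8.95, 79.2 ± 5.92, 83.4 ± 2.58 and 88.6 ± 3.74 CPM per kb (SD) in the same order. Ube2c, the ubiquitin-conjugating enzyme of the anaphase-promoting complex, came next in the dCas9 arm (57.8 ± 3.02 and 61.3 ± 1.88), and Ccnb1, cyclin B1, in the zinc-finger arm (54.7 ± 0.648 and 56.5 ± 2.71). The clamp gene Pcna had the highest level of the replication set in each group, with Cdt1 level with it in mCherry. In dCas9-empty it stood at 46.2 ± 5.77, which does not differ beyond the spread from Ccnb1 there at 48.7 ± 4.64. At the low end stood Orc1, a subunit of the origin recognition complex, at 1.40 ± 0.042, 1.47 ± 0.340, 1.68 ± 0.155 and 2.25 ± 0.165 CPM per kb. Pola1, the catalytic subunit of polymerase alpha, was next in each group, between 3.08 and 3.56.

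The first comparison asked whether directing dCas9 at SCN9A moved genes of the cell cycle. None of the 50 did by the test: 0 of 50 passed edgeR's quasi-likelihood test at an adjusted p under 0.05, where 0.041% of all 14628 genes passed. At an unadjusted p under 0.05 there were also 0 of 50, against 10.1% of all genes. DESeq2 gave an adjusted p to 37 of the 50 and called 0 of those, against 1.37% of all genes to which it gave one, and limma-voom 0 of 50 against 0.041%. The log2 fold changes lay between -0.13 for Gins2 and 0.11 for Birc5, with a median of 0.011 over replication genes, 0.0028 over mitosis genes and 0.0054 over all genes. The 95% interval of every one of the 50 lay within 0.5 on the log2 scale in either direction, which held for 71.9% of all genes. The widest bounds were -0.49, for Rrm2, and 0.44, for Orc1.

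Among the helicase and licensing genes, 13 in number, 7 fold changes were positive and 6 negative. Gins2, a subunit of the GINS complex, stood at 28.4, 27.4 and 25.5 CPM in dCas9-empty and at 23.6, 22.9 and 28.0 CPM in dCas9-SCN9A. The groups overlap through replicate 3 of dCas9-SCN9A, and the log2 fold change was -0.13 ± 0.09 (SE, edgeR adjusted p = 0.678). Exons of Gse1 on the other strand cover 67.3% of Gins2's exon bases, and the main counts do not separate strands. In the strand-specific column of the files that was tried, the value turned to 0.07. The libraries mark no strand, so that column holds a part of the reads of both strands and does not separate the 2 genes. Cdt1, the licensing factor that works with CDC6, stood at 124, 103 and 120 CPM against 119, 116 and 130 CPM. Replicates 1 and 2 of dCas9-SCN9A lay within the control range and replicate 3 above it, at 0.07 ± 0.07 (adjusted p = 0.768).

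The G1/S regulators also stayed within their spread. Ccne1, cyclin E1, stood at 35.6, 30.9 and 34.6 CPM in dCas9-empty and at 36.0, 32.6 and 39.4 CPM in dCas9-SCN9A, with 2 of 3 repressor libraries above all controls. Its log2 fold change was 0.10 ± 0.08 (adjusted p = 0.751). The transcription factor E2f1 stood at 96.1, 88.4 and 90.1 CPM against 94.2, 90.4 and 102 CPM, with replicate 3 of dCas9-SCN9A above all controls and the others among them. Uhrf1, which carries DNA methylation onto the new strand, stood at 141, 126 and 133 CPM against 138, 105 and 134 CPM. Replicate 2 of dCas9-SCN9A was the lowest library there, and the fold changes of E2f1 and Uhrf1 were 0.06 ± 0.06 (adjusted p = 0.778) and -0.09 ± 0.10 (adjusted p = 0.827). The polymerase and clamp genes (4) lay between -0.10 and 0.05, and the nucleotide supply genes (Rrm1, Rrm2 and Tyms) between -0.09 and 0.06.

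On the mitotic side, Birc5, which encodes survivin of the chromosomal passenger complex, stood at 78.1, 73.9 and 72.0 CPM in dCas9-empty and at 83.0, 72.2 and 87.5 CPM in dCas9-SCN9A. Replicates 1 and 3 lay above all controls and replicate 2 among them, with a log2 fold change of 0.11 ± 0.07 (adjusted p = 0.609), the smallest p of the 50. Its partner in the complex, Cdca8 (borealin), stood at 74.9, 69.1 and 65.1 CPM against 74.3, 70.7 and 75.6 CPM. That difference was 0.08 ± 0.06 (adjusted p = 0.731), and the groups overlap.

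Cenpf, a large kinetochore protein, stood at 207, 180 and 174 CPM against 189, 157 and 169 CPM, a difference of -0.12 ± 0.08 (adjusted p = 0.637). Cdk1, the kinase that drives entry into mitosis, stood at 203, 181 and 168 CPM against 201, 184 and 201 CPM, at 0.08 ± 0.07 (adjusted p = 0.712). Both overlap between groups. Ube2c was the only 1 of the 50 whose groups lay apart, as they did for 15.6% of all genes in either direction and 6.5% upwards. It stood at 151, 151 and 139 CPM in dCas9-empty and at 153, 161 and 153 CPM in dCas9-SCN9A, a difference of 0.08 ± 0.05 (adjusted p = 0.639). Tnnc2 on the other strand shares 22.8% of its exon bases.

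**Figure D2:**
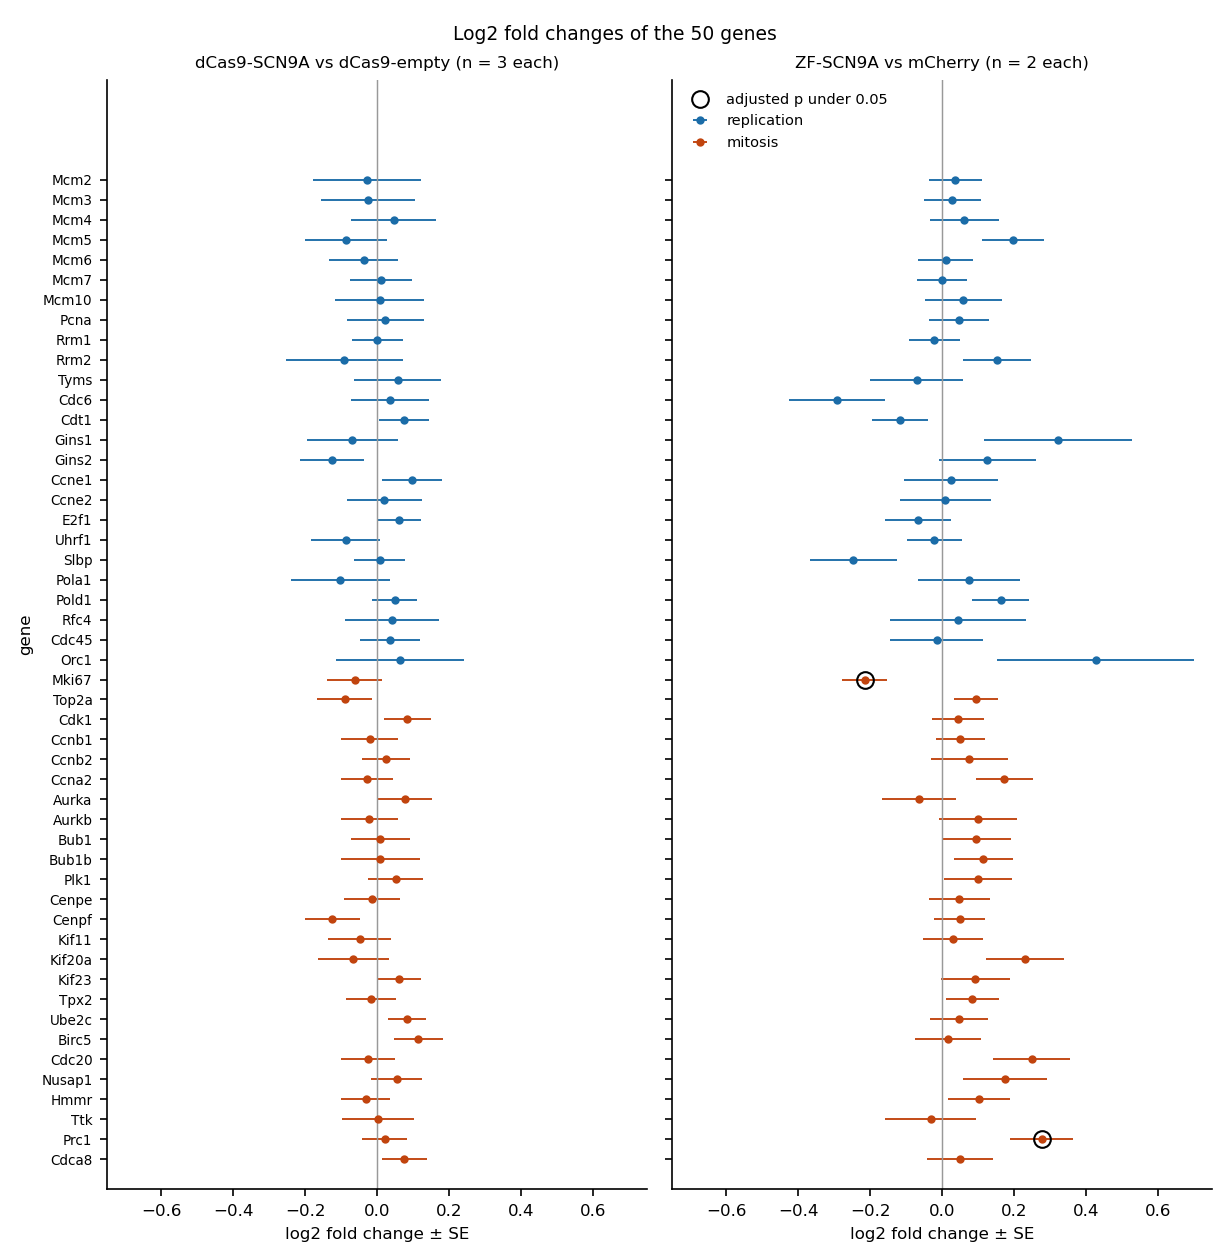
Log2 fold changes (x axis, point) with the SE of the fit (bar) for each of the 50 genes (y axis), in the dCas9 comparison (left, n = 3 each) and the zinc-finger comparison (right, n = 2 each). In the dCas9 comparison all values lie between -0.13 and 0.11, and circles mark Mki67 and Prc1, the 2 genes that passed in the zinc-finger comparison.

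The libraries within a dCas9 group differed more in these genes than the groups did. For each of the 50, the difference between group means on the log2 scale was smaller than the larger of its 2 within-group ranges, which held for 90.7% of genes at 10 CPM or more. The median within-group range was 0.366 for replication genes and 0.279 for mitosis genes, against 0.190 for all genes at that level. Replicate 1 of dCas9-empty had the highest level of its group in 48 of the 50 genes, against 36.1% of all genes. The exceptions were Orc1, at 4.61, 4.80 and 4.90 CPM in replicates 1 to 3, and Ube2c. Replicate 2 of dCas9-SCN9A had the lowest level of its group in 49 of the 50, against 36.4% of all genes, and Ube2c was again the exception, being highest there.

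As a size, the median deviation from each gene's mean over the 6 libraries was 0.145 for replication and 0.135 for mitosis genes in dCas9-empty replicate 1. It was -0.190 and -0.113 in dCas9-SCN9A replicate 2. Examples from the helicase ring are Mcm2, at 145, 113 and 124 CPM in dCas9-empty and 131, 102 and 143 CPM in dCas9-SCN9A, and Mcm6, at 173, 137 and 151 against 155, 132 and 162 CPM. Rrm2, the regulated subunit of ribonucleotide reductase, had the same order at 95.5, 69.4 and 81.0 against 80.5, 63.2 and 87.1 CPM. Bub1b, a kinetochore checkpoint protein, shared those 2 extremes but not the order of the other libraries, at 110, 94.3 and 88.2 against 108, 83.7 and 103 CPM. The 41 other replication genes and 50 other mitosis genes in the wider lists had the same extremes. In dCas9-empty replicate 1 the highest level of the group was found for 35 of 41 and 44 of 50, and in dCas9-SCN9A replicate 2 the lowest for 38 of 41 and 40 of 50. Of the 11 neuroblast markers, 5 were highest in the former, while in the latter 9 were the highest of the group and 1 the lowest.

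The 2 phases did not follow the same order of libraries. In dCas9-empty the lowest library was replicate 2 for 18 of 25 replication genes and replicate 3 for 20 of 25 mitosis genes. In dCas9-SCN9A the highest was replicate 3 for 19 of 25 replication genes and replicate 1 for 15 of 25 mitosis genes. The mitosis median minus the replication median, library by library, was -0.0095, 0.058 and -0.084 in dCas9-empty and 0.026, 0.078 and -0.067 in dCas9-SCN9A, so the groups overlap in this measure too. In both groups replicate 2 was highest in it and replicate 3 lowest. Each dCas9-SCN9A library lay above the dCas9-empty library of the same number. Replicate 1 of dCas9-empty, with 17.9 M gene counts, lay between the other libraries of its group in depth, and dCas9-SCN9A replicate 2, with 16.4 M, was the deepest of its group. Replicate 1 of dCas9-empty had the smallest share of entries naming no gene in the arm, 25.0% where the others had 26.1% to 28.2%, and dCas9-SCN9A replicate 2 had the fewest genes detected, 23135 where the others had 23329 to 24079. The part of these features in the pattern was not tested. Without dCas9-empty replicate 1 the median log2 fold change was 0.094 for replication and 0.086 for mitosis genes, and without dCas9-SCN9A replicate 2 it was 0.106 and 0.066, with 0 of 50 called either way.

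**Figure D3:**
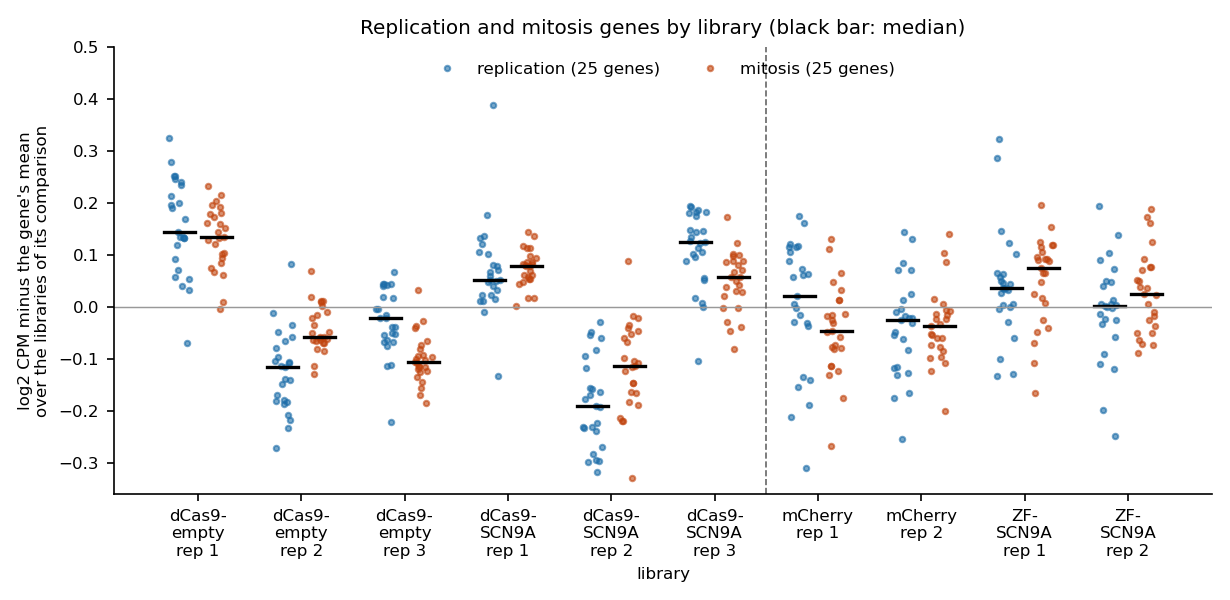
Log2 CPM of each gene minus its mean over the libraries of its comparison (y axis), for the 25 replication and 25 mitosis genes in each of the 10 libraries (x axis), with a bar at each median. The medians run from -0.190 to 0.145 in the dCas9 libraries and from -0.046 to 0.076 in the zinc-finger arm.

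Log2 fold changes in the dCas9 comparison fell with exon length across all 14616 genes with a length (Spearman's rho = -0.35), and the 50 genes followed that slope with rho = -0.31. These values are a description across genes of the same 6 libraries. The long genes Cenpf (15.4 kb), Mki67 (10.1 kb) and Top2a (9.01 kb) had values of -0.12, -0.06 and -0.09, where the median of all genes near 14.8 kb was -0.11 and near 10.4 kb -0.06. Of the other genes among the 50 that are over 8 kb, Pola1 (8.81 kb) had -0.10, while 3 lay above that line, with 0.0011 for Rrm1, the second longest, -0.01 for Cenpe (8.62 kb) and 0.02 for Prc1 (8.23 kb). With an offset that removes the trend in each library, rho over the 50 genes was 0.16, their values ran from -0.13 to 0.10, and again 0 were called. Without that offset, -0.12 for Cenpf is close to what genes of its length had in general.

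**Figure D4:**
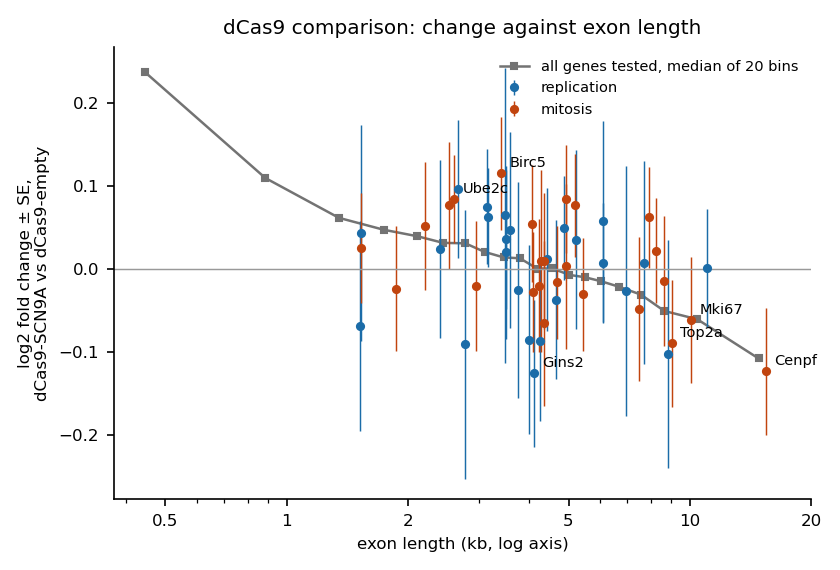
Log2 fold change with SE in the dCas9 comparison (y axis) against exon length in kb (x axis, log scale) for the 50 genes, with the median of all tested genes in 20 length bins (grey). The grey medians fall from 0.24 in the shortest bin to -0.11 in the longest, and Cenpf lies near the end of that line.

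The second comparison put the same question to the zinc finger. Mki67 was lower and Prc1 higher with ZF-SCN9A than with mCherry, and these were the 2 of 50 genes that passed, where 4.72% of all 12899 genes did (1.95% higher, 2.78% lower). A share of 2 in 50 is near that background. At an unadjusted p under 0.05 there were 9 of 50, 6 higher and 3 lower, against 16.2% of all genes (7.78% higher, 8.4% lower). Groups did not overlap in 22 of 50 genes, 18 higher and 4 lower, against 45.6% of all genes (23.3% higher, 22.3% lower). The 95% interval lay within 0.5 on the log2 scale for 47 of the 50, the others being Cdc6, Gins1 and Orc1. For 88.0% of genes in this fit the spread was taken wholly from the trend over genes. Those p-values do not rest on the spread of the gene's own 2 libraries a group, and Mki67 and Prc1 are among these genes.

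Mki67 (ENSMUSG00000031004, chromosome 7, 135689784 to 135716361 in GRCm38), whose protein keeps mitotic chromosomes apart and is the usual marker of dividing cells, had 492 and 490 CPM in the mCherry libraries against 407 and 440 CPM in the ZF-SCN9A libraries. Both repressor libraries lay below both controls. The means were 491 ± 1.84 and 424 ± 23.8 CPM (SD over 2 libraries), which gives a log2 fold change of -0.22 ± 0.06 (SE, 95% interval -0.34 to -0.09, edgeR adjusted p = 0.0200). Prc1 (ENSMUSG00000038943, chromosome 7, 80294450 to 80316259), needed for the last step of division, had 92.5 and 84.9 CPM in mCherry against 106 and 109 CPM in ZF-SCN9A. Again the groups do not overlap. Its log2 fold change was 0.28 ± 0.09 (0.11 to 0.45, adjusted p = 0.0366). Rccd1 on the other strand shares 11.1% of Prc1's exon bases and stood at 0.18 ± 0.17 (adjusted p = 0.689).

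Neither call held under every way of testing. DESeq2 called 0 of 50, against 0.978% of its genes, with adjusted p = 0.175 for Mki67 and adjusted p = 0.730 for Prc1, while limma-voom called both, against 4.28% of all genes. Mki67's call ended without mCherry replicate 1 (adjusted p = 0.110), without ZF-SCN9A replicate 1 (adjusted p = 0.556) and without ZF-SCN9A replicate 2 (adjusted p = 0.111). That of Prc1 ended without mCherry replicate 2 (adjusted p = 0.197), without ZF-SCN9A replicate 1 (adjusted p = 0.227) and without ZF-SCN9A replicate 2 (adjusted p = 0.306), while the direction of both held in each case by edgeR's test.

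The mitotic genes next in order of p all had positive values and did not pass. Cdc20, the activator of the anaphase-promoting complex, had 54.4 and 54.7 CPM under mCherry against 62.4 and 67.9 CPM under the zinc finger. Its value was 0.25 ± 0.11 (adjusted p = 0.179). Ccna2, cyclin A2, stood at 131 and 128 against 147 and 145 CPM, at 0.17 ± 0.08 (adjusted p = 0.222). Exosc9 on the other strand shares 12.5% of its exon bases, and in the strand-specific column its value was 0.09. Kif20a, a kinesin of the central spindle, stood at 52.1 and 53.1 against 65.1 and 57.7 CPM, at 0.23 ± 0.11 (adjusted p = 0.248). In all 3 the repressor libraries lay above the controls. Cdc23 on the other strand shares 29.3% of Kif20a's exon bases, and in the strand-specific column Kif20a turned to -0.06. That column does not separate the strands in these libraries, so the part of the overlapping genes was not tested.

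By role, all 7 genes of the spindle and cytokinesis had positive values (0.03 to 0.28), as had all 3 of the passenger complex (0.02 to 0.10) and both of the anaphase-promoting complex. Of the 6 mitotic cyclins and kinases 5 were positive, from -0.06 for Aurka to 0.17 for Ccna2, and of the 5 checkpoint and kinetochore genes 4. In all, 22 of 25 mitosis genes were positive, the others being Mki67, Aurka and Ttk, where 50.4% of all genes were. The count was 22 under both other scalings, 18 in the strand-specific column, where Birc5, Kif20a, Kif11 and Cenpe turned negative, and 18 without ZF-SCN9A replicate 1. Genes that share a cell cycle phase vary together and are not independent measurements.

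Among replication genes, values went both ways and 0 of 25 passed. Mcm5 had 91.0 and 96.6 CPM in control against 111 and 104 CPM in repressor libraries, at 0.20 ± 0.09 (adjusted p = 0.193). Cdc6 had lower values, 38.4 and 37.2 against 32.6 and 28.6 CPM, at -0.29 ± 0.13 (adjusted p = 0.224). The groups do not overlap in either gene, but the value of Cdc6 was -0.08 in the strand-specific column.

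Pold1, the catalytic subunit of polymerase delta, had 122 and 135 CPM in control against 148 and 139 CPM in repressor libraries, at 0.16 ± 0.08 (adjusted p = 0.264). Slbp, which binds the stem-loop of histone messages, stood at 49.4 and 46.8 against 40.4 and 40.6 CPM, at -0.25 ± 0.12 (adjusted p = 0.272). Rrm2 stood at 77.8 and 67.9 against 80.1 and 81.7 CPM, at 0.15 ± 0.10 (adjusted p = 0.455), and its value was 0.24 in the strand-specific column. In these 3 as well the libraries of the groups lay apart. Of the 13 helicase and licensing genes 10 were positive, of the 4 polymerase and clamp genes 4, of the 3 nucleotide supply genes 1 and of the 5 G1/S regulators 2. Orc1 had the largest value of the 50, 0.43 ± 0.27 (adjusted p = 0.474), with 5.66 and 6.47 against 8.55 and 7.72 CPM.

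**Figure D5:**
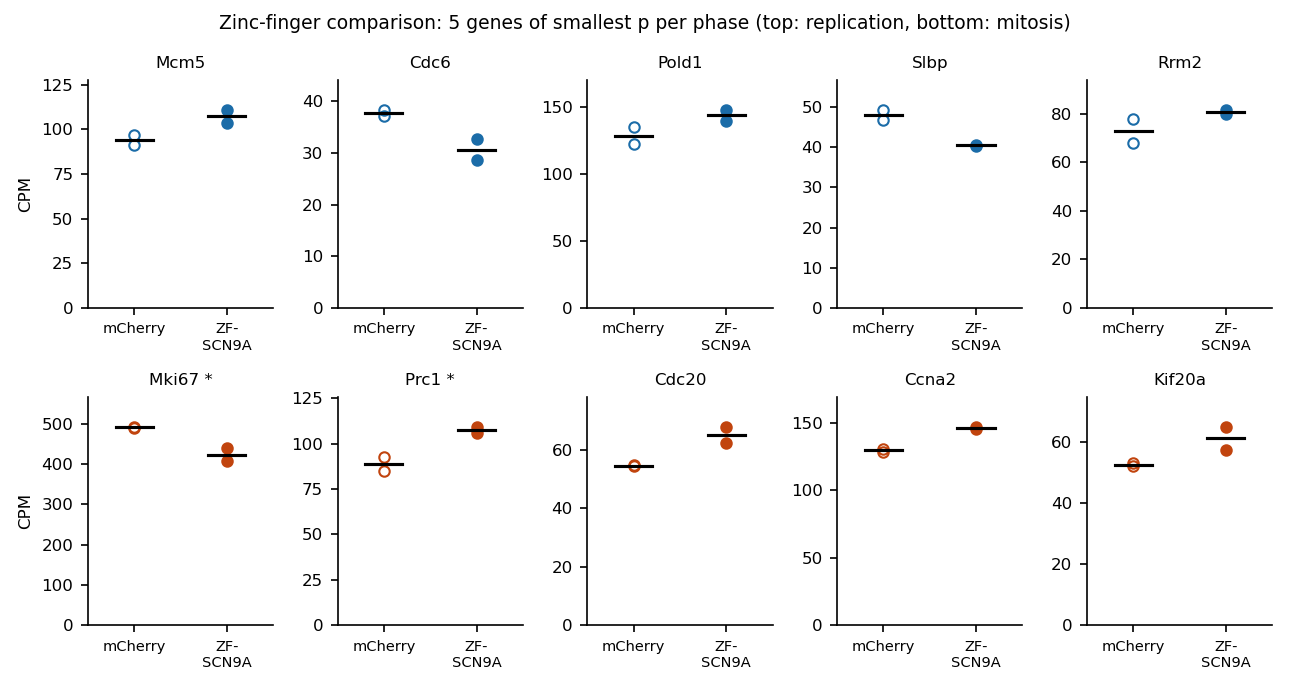
CPM (y axis, from 0) in each mCherry and ZF-SCN9A library (points, n = 2 each) with the group mean (bar) for the 5 replication genes (top) and 5 mitosis genes (bottom) of smallest p. The groups lie apart in all 10 panels, which the choice by p favours, and they did so for 45.6% of all genes. Stars mark Mki67 and Prc1, which had an adjusted p under 0.05 by edgeR.

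The phases were then set side by side. With the zinc finger the median log2 fold change was 0.084 for mitosis genes and 0.029 for replication genes, against 0.0017 over all genes, a difference between phases of 0.056. Library by library, the mitosis median minus the replication median was -0.067 and -0.0098 with mCherry and 0.040 and 0.023 with ZF-SCN9A, so the groups did not overlap in this measure. With 2 libraries a group that is a weak criterion, which the levels of 45.6% of all genes met in this arm. The difference between phases rests in part on mCherry replicate 1, without which it was 0.013, and it was 0.099 in the strand-specific column. The replication median alone was -0.0059 without mCherry replicate 2 and 0.056 without ZF-SCN9A replicate 2. In the dCas9 comparison the same difference was -0.0084. The pooled SD between libraries of a group, in the library-by-library measure, was 0.072 there and 0.030 in the zinc-finger arm. This SD takes no account of replicate number, which the dCas9 libraries followed in this measure. By that measure the dCas9 group means were -0.012 with dCas9-empty and 0.012 with dCas9-SCN9A. No test was made of these medians, since the genes were chosen with results known.

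The change with dCas9 minus the change with the zinc finger was tested for each gene over all 10 libraries. It passed for 0 of 50 genes, where 0.907% of 15766 genes passed by edgeR. At an unadjusted p under 0.05 there were 2, Prc1 (-0.25 ± 0.11, adjusted p = 0.362) and Cdc20 (-0.27 ± 0.13, adjusted p = 0.437), against 10.9% of all genes. DESeq2 and limma-voom also called 0 of 50, against 1.28% and 0.565%. For Mki67 the difference was 0.16 ± 0.11 (95% interval -0.06 to 0.38, adjusted p = 0.624), with -0.06 ± 0.08 under dCas9 and -0.22 ± 0.06 under the zinc finger. The lower Mki67 with the zinc finger was thus not shown to differ from its value with dCas9, nor was the higher Prc1.

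The rest of the pathway was read from wider lists. With dCas9, 0 genes passed in any of them. Values of smallest p by edgeR were Fen1, the flap endonuclease of lagging-strand synthesis, at -0.57 ± 0.25 (adjusted p = 0.437, at 1.84 to 3.92 CPM) and Orc6 at 0.12 among 41 other replication genes, and Cks2 at 0.20 ± 0.07 (adjusted p = 0.346) and Cdc25c at 0.27 among 50 other mitosis genes. In G1 they were Cdkn1b, the inhibitor p27, at -0.10 and Ccnd2 at -0.60. Among E2F, RB and MuvB genes they were Lin37 at 0.23 and Lin52 at 0.30, and among checkpoint and repair genes Atr at -0.17 and H2afx at 0.15.

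With the zinc finger, 3 of 50 other mitosis genes were higher and 0 lower, where 1.95% of all genes were higher and 2.78% lower. Cit, the citron kinase that acts in cytokinesis, rose by 0.30 ± 0.09 (edgeR adjusted p = 0.0143), from 88.0 and 91.2 to 112 and 108 CPM. Ncapd2, a subunit of condensin, rose by 0.26 ± 0.08 (adjusted p = 0.0333), from 105 and 102 to 126 and 120 CPM, and Ccnf, cyclin F, by 0.34 ± 0.11 (adjusted p = 0.0462), from 46.7 and 48.3 to 56.6 and 63.6 CPM. The median of these 50 was 0.064, with 34 positive, and of the 41 other replication genes 0.020, with 25 positive and 0 called.

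Of 19 E2F, RB and MuvB genes 1 was called lower, where 2.78% of all genes were. It was Lin54, the DNA-binding subunit of MuvB that reads the CHR element, at -0.61 ± 0.12 (edgeR adjusted p = 5.18e-05), from 51.6 and 53.9 to 35.3 and 33.5 CPM. The other 18 did not pass. Calls in the wider lists are given from edgeR's test alone, without the alternatives shown for the 50 genes. In the remaining lists 0 genes passed: Pold2 stood at 0.25 (adjusted p = 0.0721) and Dut at 0.22 among other replication genes, Cdk4 at 0.15 and Ccnd1 at 0.15 among G1 genes, and Atm at -0.34 (adjusted p = 0.0968) and Fanci at 0.29 among checkpoint genes. Of 14 S-phase histone genes only 3 with dCas9 and 4 with the zinc finger passed the filter, near-identical copies with summed levels of 5.43 to 13.9 CPM, and 0 were called. The median half-width of their 95% intervals was 0.66 with dCas9 and 0.99 with the zinc finger. The lack of calls therefore says little about histone genes.

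Markers of cell identity moved in the zinc-finger arm beside these genes. Of 11 neuroblast markers tested, 5 passed by edgeR, where 4.72% of all genes did: Gata2 (-0.58, adjusted p = 5.11e-14), Isl1 (-0.41, adjusted p = 0.00474) and Hand2 (-0.20, adjusted p = 0.0426) were lower, and Dbh (0.71, adjusted p = 0.00313) and Chga (0.25, adjusted p = 0.00667) higher. Their summed level was 2535 to 2580 CPM with mCherry and 2482 to 2554 CPM with ZF-SCN9A. Of 7 fibroblast markers 3 were tested, and Col1a1 was higher at 1.07 ± 0.35 (edgeR adjusted p = 0.0452), at 3.11 and 2.86 against 6.85 and 5.45 CPM. The median of the 3 was 0.094, with 1 of them negative at -0.22, and the list summed to 14.7 to 18.8 and 16.1 to 22.1 CPM. Of 7 glial and 8 immune or endothelial markers, 2 each were tested and 0 were called. With dCas9, 0 markers of any list passed. The part of these shifts in the values of the cell cycle genes was not tested.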

How the data were processed

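Total RNA of 10 Neuro2a samples was sequenced, and the deposited values are raw counts of reads per gene for each library, in the column layout of STAR's gene counts. The authors' tools, per the submitters' processing notes, included bcl2fastq 2.20, STAR 2.7.3a and DESeq2, with the build GRCm38. The annotation release and how STAR was set to count are not stated there. The column without strand was used, since both strand columns held 53.4% to 54.0% as many reads, which marks no strand. Reads of exons shared by genes on opposite strands therefore cannot be assigned by strand, and a strand column does not separate them either. Among the 4 entries naming no gene are those for ambiguous and for multiply mapped reads. How many reads of such exons, or of named pseudogene copies (of Ccnb1, Ccnb2, Pcna and Tyms), fell there was not counted. The 4 entries naming no gene, 25.0% to 28.2% of listed reads, and 4 plasmid entries stayed out of library sizes and tests. By a chi-square test of their counts, all replicate pairs differed beyond sampling noise.

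Gene identifiers were matched to symbols through GENCODE M21 (55141 of 55401, all 50 genes among them). Each repressor was tested against its own control in R 4.3.3 by the quasi-likelihood test of edgeR 4.0.16 (with limma 3.58.1), using TMM scaling, edgeR's filter by group, robust fitting, two-sided p-values and Benjamini-Hochberg adjustment over all genes tested. Adjusted p-values are from this test unless another tool is named, and an adjusted p under 0.05 is called. CPM values use the TMM-scaled sums, set within each comparison, and levels per kilobase use 1 scaling over all 10 libraries. Motifs were searched in RefSeq promoters of GRCm38.p6. The scripts were tested on simulated data, and DESeq2 1.42.0 was an alternative.

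The genes and the wider lists were chosen with earlier results of these data known. Values in every library are given for the called genes and, per phase and comparison, for the 5 of smallest p, with others by role. Of each wider list the called genes are named (at most 6), or else the 2 of smallest p. Orc1, Top2a, Mcm2, Mcm6 and Bub1b were singled out after their values were seen. The alternatives were other scalings, filters and tools, 1 fit of all libraries, the replicate number as a block, 1 strand column, an exon length offset and each library left out. Interval and p-value precision rests on depth and on 2 or 3 libraries a group. For most genes of the zinc-finger fit it also rests on the trend over genes.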

Additional observations from a re-analysis of the deposited data

How the results depend on the processing

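Of the 50 genes, 0 were called in the dCas9 comparison and 0 in the difference between repressors under every alternative run (with DESeq2, of the 37 with an adjusted p in the dCas9 comparison). In the zinc-finger comparison 2 were called with DESeq2's size factors, plain library size, a filter at 1 CPM and limma-voom. The count was 1 with no filter on low counts (Mki67, with Prc1 at adjusted p = 0.114), 1 with the exon length offset (Prc1, with Mki67 at adjusted p = 0.0685) and 0 with DESeq2, with all 10 libraries in 1 fit (edgeR adjusted p = 0.202 for Mki67 and 0.104 for Prc1) and with the strand column (0.109 and 0.0947), which holds fewer reads. Leaving out each library gave 0 to 1. With the replicate block 1 was called (Mki67, with Prc1 at adjusted p = 0.0534). The labels do not say whether a number marks a shared day or plate. The deviations of same-numbered dCas9 libraries correlated at 0.24, 0.16 and 0.04 across genes and those of the zinc-finger arm at 0.066. Replicates 1 and 2 of dCas9-empty correlated best with their own number, and replicate 3 with dCas9-SCN9A replicate 2 (0.10). With the block, edgeR's common coefficient of variation between libraries fell from 6.07% to 4.77% with dCas9 and from 5.12% to 4.02% with the zinc finger. Whether the libraries are paired was thus not settled, and the main tests did not pair them. The block changed no other call. In the zinc-finger comparison the strand column moved the mitosis median to 0.113 and the difference between phases to 0.0993. Leaving out each library gave 0.013 to 0.076 for that difference and -0.0059 to 0.056 for the replication median. The cause of these shifts was not tested. No called value changed sign. The zinc-finger libraries are the shallower ones. The median half-width of the 95% interval over the 50 genes was 0.180 there and 0.175 in the dCas9 comparison. For most genes, smaller changes would not reach an unadjusted p under 0.05. A call needs an adjusted p under 0.05, which asks for more, so the half-width is not the limit of detection.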
